A study of Homo sapiens with 4 samples.

Results

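Bidirectional promoters are short stretches of DNA between the starts of a pair of genes that lie head to head on opposite strands and are transcribed away from each other. They were followed in ATAC-seq peak lists of pancreatic progenitors made from MEL1, an established human embryonic stem cell line that the methods name MEL1 INS GFP/W, with a GFP reporter at the insulin gene. In GENCODE release 44 on chromosomes 1 to 22 and X, 887 pairs of protein-coding genes on opposite strands had starts at most 1 kb apart, and they held 1710 of 19970 protein-coding genes (8.56%). A region belonged to the set when a merged peak overlapped the interval between both starts extended by 500 bp on each side, which gave 801 of 164301 merged regions. The starts of a pair were 132 bp apart at the median (quartiles 69 and 248.5 bp, range 1 to 995 bp). For comparison, 17291 one-direction promoters were taken, that is, protein-coding starts with no protein-coding start on the other strand within 1 kb, each extended by 500 bp, and they overlapped 10844 regions.

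ATAC-seq uses the Tn5 transposase to cut accessible DNA, so that read density along the genome marks open chromatin. The cells were kept in the basal medium EF6 with the carrier DMSO for 7 days, or in the same medium with 1 μM I-BET151, and 2 libraries of 50000 cells each were made per condition. I-BET151 is an inhibitor of BET bromodomain proteins, which bind acetylated histones and help RNA polymerase II to elongate. Both groups shared the reporter line and the basal medium. Nothing in the labels says whether libraries of a group came from separate cultures, so p-values measure the spread between these libraries, which may be technical. Of the progenitor promoters, NKX6-1, SOX9 and GATA6 were called in all 4 lists, FOXA2 in all but DMSO replicate 1, and PDX1, GATA4 and ONECUT1 in both I-BET151 lists and not with DMSO. The pluripotency promoters POU5F1 and NANOG were not called in any list, the endocrine promoters NEUROG3, INS and GCG were not called, NEUROD1 was called in I-BET151 replicate 1, and of the acinar promoters CPA1 was called in all 4 lists and PTF1A in none. The lists held 82568 and 38295 peaks in DMSO replicates 1 and 2 and 84995 and 111324 in I-BET151 replicates 1 and 2, and values given for the 4 lists follow this order. Peaks of the replicate 1 lists were at least 200 bp long, but those of the replicate 2 lists at least 233 bp (DMSO) and 256 bp (I-BET151), so the replicates were not called alike.

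Most bidirectional promoters lie in CpG islands and lack a TATA box, and many serve housekeeping genes for protein synthesis, mitochondrial function and the care of DNA. In such promoters a single nucleosome-free stretch carries a pair of transcription machineries that point outwards. Pairs known from textbooks include PPAT and PAICS, which both act in purine synthesis, and SARS2 and MRPS12, which charge a mitochondrial tRNA and build the mitochondrial ribosome. Divergent histone genes are another classic group, since H2A and H2B are made together in S phase.

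The DNA between the starts is shown for pairs that recur in the results, on the plus strand of hg38 and 5′ to 3′, with letters that match a searched motif in capitals. The minus-strand gene starts just left of each sequence and the plus-strand gene just right of it. The first pair of sequences belongs to the textbook pairs PPAT-PAICS (chr4:56435616-56435740, with an SP1 match) and SARS2-MRPS12 (chr19:38930764-38930943, with an NFY match).
PPAT-PAICS: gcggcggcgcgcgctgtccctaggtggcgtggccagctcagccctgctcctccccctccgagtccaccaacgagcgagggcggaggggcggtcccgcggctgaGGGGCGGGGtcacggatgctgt
SARS2-MRPS12: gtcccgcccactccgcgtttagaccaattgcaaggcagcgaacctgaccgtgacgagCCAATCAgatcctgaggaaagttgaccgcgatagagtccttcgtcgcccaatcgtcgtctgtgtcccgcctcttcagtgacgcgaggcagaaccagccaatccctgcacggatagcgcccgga

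The next sequence is from a promoter that moved up in rank with I-BET151 and holds an ETS match (chr14:74713118-74713143).
AREL1-FCF1: tttgCCGGAAGcagtatgtgaatgac

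Promoters that moved down in rank are represented by VPS35-ORC6 (chr16:46689519-46689642), where overlapping NRF1 matches precede an NFY match on the minus strand, and by GLA-HNRNPH2 (chrX:101408013-101408221), with an NFY match and E-boxes.
VPS35-ORC6: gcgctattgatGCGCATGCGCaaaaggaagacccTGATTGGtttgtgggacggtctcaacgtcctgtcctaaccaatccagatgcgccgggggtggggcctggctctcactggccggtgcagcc
GLA-HNRNPH2: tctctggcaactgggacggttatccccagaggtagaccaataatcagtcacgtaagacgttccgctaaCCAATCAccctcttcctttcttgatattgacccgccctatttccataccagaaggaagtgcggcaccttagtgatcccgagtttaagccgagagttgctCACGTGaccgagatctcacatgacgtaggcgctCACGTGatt

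The last sequences show a histone pair with TATA matches near both ends and NFY matches between them (H2BC11-H2AC11, chr6:27132796-27133042), and a pair of promoters that were called with I-BET151 alone and hold no match to the searched motifs between their starts (chr12:85036278-85036313 and chr16:88706409-88706482).
H2BC11-H2AC11: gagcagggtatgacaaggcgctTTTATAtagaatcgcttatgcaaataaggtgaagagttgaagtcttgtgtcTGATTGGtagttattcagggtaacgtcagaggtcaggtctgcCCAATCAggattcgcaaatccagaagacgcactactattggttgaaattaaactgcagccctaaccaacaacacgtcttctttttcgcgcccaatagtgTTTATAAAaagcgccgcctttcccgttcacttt
TSPAN19-LRRIQ1: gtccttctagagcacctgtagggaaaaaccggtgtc
RNF166-CTU2: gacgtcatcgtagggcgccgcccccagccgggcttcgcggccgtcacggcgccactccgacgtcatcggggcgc

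To ask how open these promoters were, each pair was scored as called or not called in every list. A peak was called at 87.6% and 86.0% of the pairs in the DMSO lists and at 91.5% and 93.7% in the I-BET151 lists. The corresponding shares of one-direction promoters were 48.9%, 44.9%, 54.8% and 59.6%. Bidirectional promoters were called more often in each of the 4 libraries, by 37.7 percentage points on average (SD 2.98, n = 4 libraries), and the two-sided exact sign-flip permutation test over libraries gave p = 0.13, the smallest value that 4 libraries allow. In all, 749 pairs (84.4%) were called in all 4 lists, against 7240 one-direction promoters (41.9%). The plot of called shares by library shows both classes.

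**Figure D1:**
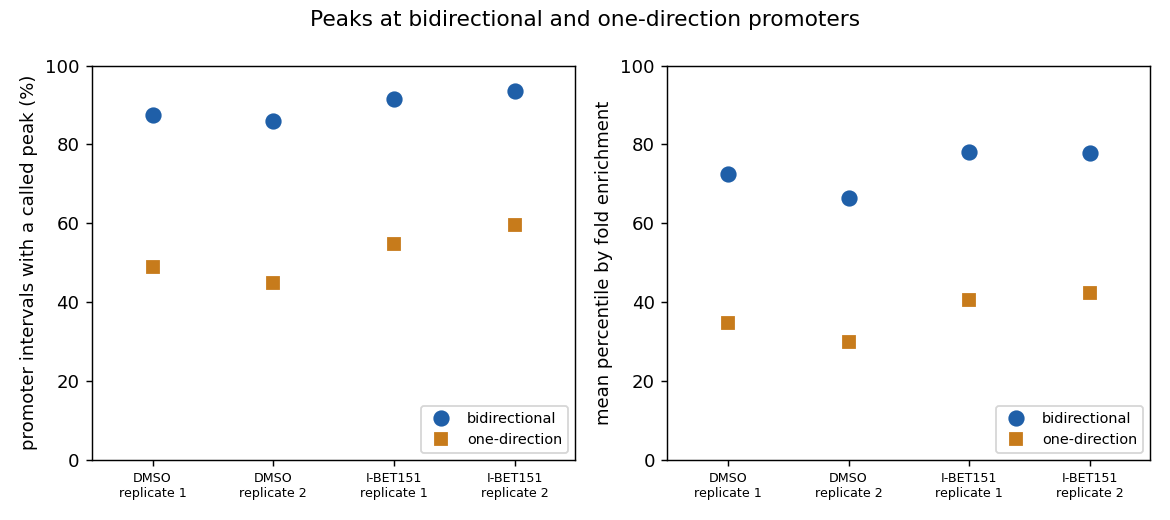
Share of promoter intervals with a called peak (left, in %) and mean percentile of the strongest peak by fold enrichment, with 0 where no peak was called (right), in each of the 4 libraries. Circles are the 887 bidirectional pairs and squares the 17291 one-direction starts; the circles sit between 86.0% and 93.7% on the left and the squares between 44.9% and 59.6%.

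Strength followed the same order. The percentile of a peak is its rank by fold enrichment among all peaks of its list, with 100 for the strongest, and an interval without a peak was set to 0. The mean percentile of bidirectional promoters was 72.4 and 66.3 with DMSO and 78.2 and 77.9 with I-BET151, and that of one-direction promoters was 34.8, 30.0, 40.5 and 42.4. The difference was 36.8 ± 1.03 (SD, n = 4 libraries, exact sign-flip permutation p = 0.13, the smallest possible). Among regions called in all 4 lists, the median pileup, which is the number of reads at the summit, was 42, 42, 48 and 94 reads at bidirectional and 35, 34, 40 and 76 reads at one-direction promoters. The strongest peak was also wider at bidirectional promoters, with median widths of 647, 762, 751.5 and 1021 bp against 535, 662, 648 and 904 bp, a difference of 108 ± 7.77 bp (SD, n = 4 libraries).

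Base composition moved with the class. In 300 bp centred between the starts, the pairs had a median GC content of 64.3% and a CpG ratio (observed over expected) of 0.876, whereas one-direction promoters had 59.3% and 0.652 from 250 bp before to 50 bp after the start. When both classes were restricted to CpG-rich windows (GC at least 50% and CpG ratio at least 0.6), 770 pairs (86.8%) and 8869 one-direction starts (51.3%) remained. Of these pairs, 90.0%, 89.1%, 94.5% and 96.4% were called in the 4 lists, against 71.0%, 68.1%, 81.0% and 85.0% of the one-direction starts. The difference between the classes in CpG-rich windows was thus 16.2 percentage points in called share and 20.4 in mean percentile. The 117 pairs outside the CpG-rich set were called in 71.8%, 65.8%, 71.8% and 76.1% of cases, and the 8422 other one-direction starts in 25.6%, 20.5%, 27.2% and 32.9%. What part base composition had in the difference was not tested.

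Among the promoters with the highest percentile over the 4 lists were WBP11-C12orf60, IMMP1L-ELP4, DCDC1-DNAJC24 and DIMT1-IPO11. WBP11 is a splicing factor, ELP4 a subunit of the Elongator complex, DNAJC24 a co-chaperone of diphthamide synthesis and DIMT1 an enzyme of ribosome assembly. The fold enrichment of WBP11-C12orf60 was 14.2 and 15.8 with DMSO and 17.3 and 21.6 with I-BET151, from pileups of 73, 105, 105 and 290 reads. IMMP1L-ELP4 had 11.9, 14.4, 16.7 and 19.8. These 4 promoters stood above the 99th percentile in every list.

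Among the textbook pairs fixed by name, 5 were members. The promoter of PPAT-PAICS was called in all 4 lists with a fold enrichment of 5.67 and 9.23 with DMSO and 9.31 and 11.3 with I-BET151. NPAT-ATM joins an activator of histone genes to a kinase of the DNA damage response, and its starts were 406 bp apart. Its fold enrichment was 9.34 and 9.71 with DMSO and 11.4 and 12.1 with I-BET151. PRKDC-MCM4, a DNA repair kinase next to a subunit of the replicative helicase, had starts 7 bp apart and a fold enrichment of 6.91, 6.64, 10.1 and 10.6. SARS2-MRPS12 had 6.97, 6.23, 16.5 and 15.4, and TMEM258-FEN1, an oligosaccharyltransferase subunit next to a flap endonuclease of DNA replication, had 5.41, 4.97, 7.14 and 9.99. All 5 were called in every list, and none passed the test of rank described further on, with limma adjusted p between 0.0942 (NPAT-ATM) and 0.579 (TMEM258-FEN1). HSPD1-HSPE1, COL4A1-COL4A2, SURF1-SURF2 and TAP1-PSMB9 were not members, because their gene records overlap at the starts in GENCODE.

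A single peak often covered both starts. This was the case for 72.4% and 70.6% of pairs with DMSO (71.5% ± 1.28, SD, n = 2) and for 80.2% and 85.5% with I-BET151 (82.8% ± 3.75, SD, n = 2). The groups did not overlap, and the difference of 11.3 percentage points gave a two-sided exact permutation p of 0.33, the smallest for 2 against 2 libraries. The share was lowest where the starts were farthest apart. At 1 to 100 bp it was 77.8% and 77.5% with DMSO and 89.2% and 90.9% with I-BET151, and at 401 to 1000 bp it was 29.5%, 37.5%, 34.8% and 55.4%. Peaks were wider in the I-BET151 than in the DMSO list of the same replicate number, and what part their width had in the share was not tested.

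More than 1 peak at a pair was seen mainly in the replicate 1 lists, at 106 of 777 called pairs with DMSO (13.6%) and 81 of 812 with I-BET151 (9.98%). In the replicate 2 lists it was seen at 10 of 763 (1.31%) and 14 of 831 called pairs (1.68%). The histone pair H3C7-H2BC9, with starts 979 bp apart, had 3 separate regions, which was the largest number at any pair.

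The summit of the strongest peak lay close to the middle between the starts in the replicate 1 lists. The median offset from the middle was 1 bp with DMSO and −2 bp with I-BET151, counted along the plus strand. In the replicate 2 lists it was 66.5 bp in both conditions. Accordingly, the summit fell between the starts at 59.5% and 62.7% of called pairs in the replicate 1 lists, but at 32.9% and 35.7% in the replicate 2 lists. The shift was not particular to bidirectional promoters. Over all regions called in all 4 lists the summit lay 72 bp further right in replicate 2 than in replicate 1, both with DMSO and with I-BET151, and it moved by 0 and −1 bp between the conditions within a replicate number. One-direction promoters of the plus strand had a median summit at −38 and −36 bp from the start in the replicate 1 lists (DMSO and I-BET151), that is, before the start, but at 40 and 42 bp in the replicate 2 lists. On the minus strand the summits lay 31 and 32 bp to the right of the start, likewise before it, in the replicate 1 lists and 81 and 92 bp to the right in the replicate 2 lists.

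**Figure D2:**
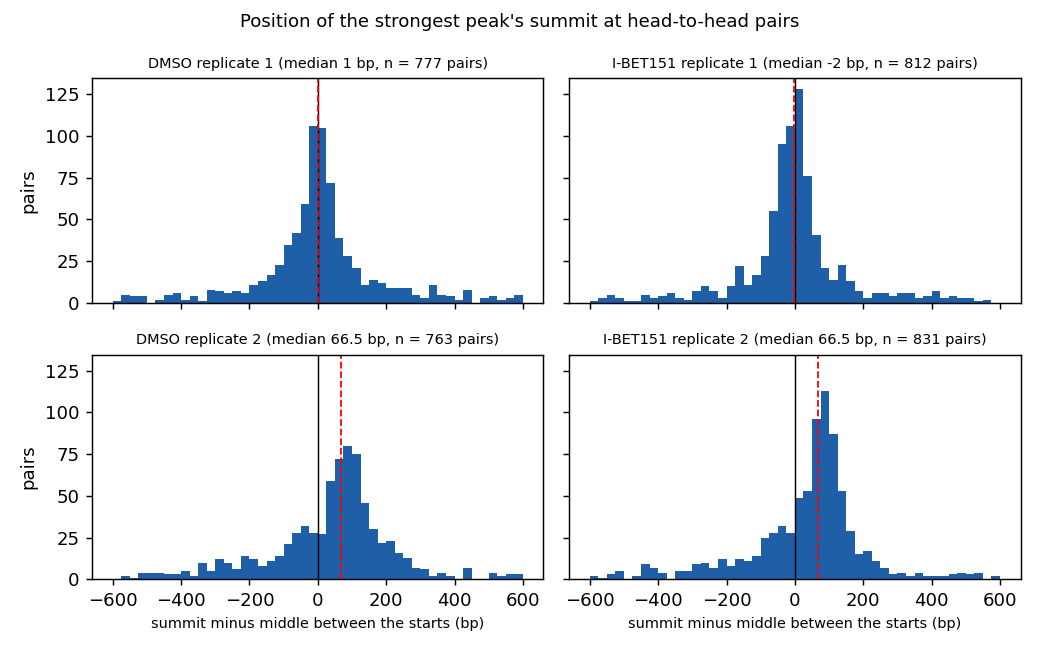
Histograms of the distance (bp, along the plus strand) from the middle between the starts to the summit of the strongest peak, for the called pairs of each library in bins of 25 bp; the vertical axis is the number of pairs, the solid line marks the middle and the dashed line the median. The medians are 1 and −2 bp in the replicate 1 lists and 66.5 bp in both replicate 2 lists.

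The 300 bp windows centred between the starts were searched for the exact letters of promoter motifs on both strands, and motifs were counted separately even where they overlapped. The ETS core (CCGGAAG, bound by ETS factors such as GABPA) was found at 27.2% of pairs, against 10.1% of one-direction starts and 17.6% of those called in all 4 lists. NRF1 (GCATGCGC), a regulator of nuclear genes for mitochondria, was found at 9.13%, against 3.25% and 5.32%. NFY (CCAATCA), the CCAAT box, was found at 12.4%, against 7.79% and 9.60%, and YY1 (AAGATGGCG) at 3.95%, against 1.55% and 2.97%. The TATA letters (TATAAA) were found at 5.19% of pairs, against 11.7% of one-direction starts and 5.93% of those called in all 4 lists. SP1 (GGGGCGGGG) was found at 24.4% of pairs, which was more than over all one-direction starts (19.7%) but fewer than over those called in all 4 lists (28.3%). The palindrome CRE (TGACGTCA) was found at 3.95% of pairs, against 2.13% of one-direction starts and 3.4% of those called in all 4 lists. The palindrome E-box (CACGTG) was found at 10.2%, against 8.17% and 9.8%. The CTCF consensus was found at 1 pair (0.113%), against 0.549% and 0.856%. With one-direction windows placed wholly before the start, the ETS share was 8.09%, the TATA share 13.0% and the YY1 share 0.538% (0.939% of those called in all 4 lists), so the size of the YY1 difference moved with the placement of the window. These are counts of letters, not of bound factors, and pairs that share a gene share part of their window.

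Motif content changed with the distance between the starts, in centred windows of 300 bp at every distance. Such a window held both starts at 1 to 100 bp and neither start at 401 to 1000 bp. What part this placement had in the shares was not tested. ETS matches were found at 37.1% of pairs with starts 1 to 100 bp apart, 26.1% at 101 to 200 bp, 19.4% at 201 to 400 bp and 11.6% at 401 to 1000 bp. The NFY share was 7.02%, 11.9%, 25.6% and 8.93% in the same order, and the TATA share 3.22%, 3.16%, 8.89% and 9.82%. The 15 histone pairs, with starts 236 bp apart at the median, had an NFY match in 14 cases and a TATA match in 11.

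**Figure D3:**
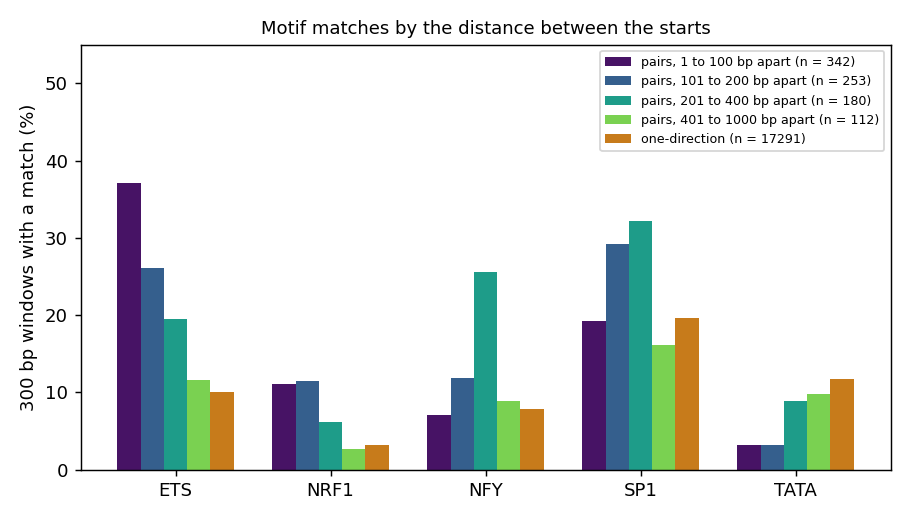
Share of 300 bp windows (in %) with an exact match to 5 motifs on either strand, for pairs in 4 classes of distance between the starts and for one-direction starts. The ETS share falls from 37.1% at 1 to 100 bp to 11.6% at 401 to 1000 bp, next to 10.1% of one-direction starts, while the NFY share is highest at 201 to 400 bp (25.6%). The centred window holds neither start at 401 to 1000 bp, whereas the one-direction window holds the start.

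Pairs with an ETS match were called in all 4 lists in 91.7% of cases, against 81.7% of pairs without one, and their median percentile was 91.7, 86.2, 93.1 and 93.0 in the 4 lists, against 87.8, 78.5, 88.0 and 87.3. With an NFY match the median percentile was 95.0, 90.6, 93.3 and 93.7, against 87.7, 79.8, 88.9 and 88.2 without one. With a TATA match it was 83.5, 74.2, 81.5 and 74.9, against 89.3, 81.8, 90.1 and 89.3. Pairs with ETS or NFY letters thus stood higher in each of the 4 lists and pairs with TATA letters lower. This was not particular to these motifs. Pairs with an E-box also stood higher in each list (91.6, 86.8, 90.6 and 90.0, against 88.9, 80.4, 89.6 and 88.7). Pairs with SP1 letters (87.6, 80.6, 88.0 and 86.0, against 89.5, 80.9, 90.1 and 89.5) or CRE letters stood lower in each. For NRF1 and YY1 the order differed between lists. Only 46 pairs had TATA letters, and 11 of them were histone pairs, which stood lower as a group.

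Whether a pair was called with I-BET151 but not with DMSO was examined next. Of the 801 regions, 705 (88.0%) were called in all 4 lists, against 67.2% of the one-direction regions and 15.6% of all merged regions. Another 41 regions (5.12%) were gained, that is, called by both I-BET151 libraries and by neither DMSO library, whereas 17.0% of all merged regions and 11.1% of the one-direction regions had this pattern. In the other direction, 0 regions were lost (called by both DMSO libraries and by neither I-BET151 library), whereas 2.37% of all merged regions and 0.664% of the one-direction regions had that pattern. With the DMSO replicate 2 list left out the count in this direction was 15, and with the I-BET151 replicate 2 list left out it was 6. Each of these counts has a single list in 1 of the groups. The shares of all merged regions under these settings are not given here, so these counts cannot be set against the 2.37%. A further 16 regions were missing from the DMSO replicate 2 list alone, 12 were called in DMSO replicate 1 alone, and 10 in I-BET151 replicate 2 alone. At the level of pairs, the called share was 86.8% ± 1.12 with DMSO and 92.6% ± 1.51 with I-BET151 (SD, n = 2 each). Both I-BET151 lists lay above both DMSO lists, by 5.81 percentage points on average (exact permutation p = 0.33, the smallest possible). Counting only peaks with a −log10 p of 10 or more, it was 14.2 percentage points. In one-direction promoters it was 46.9% ± 2.80 and 57.2% ± 3.43 (SD, n = 2 each), so that the difference between the classes changed by −4.49 percentage points (exact permutation p = 0.33). With bulk libraries, more cells with an open promoter and a more open promoter per cell cannot be told apart.

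The regions called with I-BET151 alone held few reads. Their median pileup was 20 reads in replicate 1 (range 8 to 35) and 35 reads in replicate 2 (range 12 to 72), against 48 and 94 reads for regions called in all 4 lists. Their median fold enrichment was 5.74 and 6.51. They belonged to 42 pairs, whose windows had a median GC content of 71.8%, against 64.3% over all pairs, with an NRF1 match at 1 pair and an ETS match at 9. The background level of the lists differed between the conditions, with genome-wide values of 2.87 and 3.16 reads under DMSO and of 0.923 and 1.52 under I-BET151, and its part in these calls was not tested.

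The strongest of the gained regions, by the lower of both fold enrichments, was at TSPAN19-LRRIQ1, a tetraspanin gene next to a gene of a leucine-rich repeat protein. Its fold enrichment was 12.2 and 12 in the I-BET151 lists, from 30 and 36 reads, and no peak was called with DMSO. HPCAL4-PPIE, a neuronal calcium sensor next to a cyclophilin of the spliceosome, followed with 10.7 and 11.4, and its interval also held a separate peak of DMSO replicate 1 with a fold enrichment of 2.53. Its gained region covered the start of HPCAL4 but not that of PPIE. The region between ENSG00000286112 and LRRC8A, a subunit of the volume-regulated anion channel, had 9.72 and 11. C17orf114-PLD2, where PLD2 encodes a phospholipase D, had 11.6 and 9.15, and RNF166-CTU2, where CTU2 acts in tRNA thiolation, had 8.58 and 8.74. All 5 were in the upper part of the I-BET151 lists, at percentiles from 76.3 to 95.1.

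Both members of the collagen IV list were in the gained set. COL4A4-COL4A3 and COL4A6-COL4A5 encode chains of basement membrane collagen, and their starts were 171 and 341 bp apart. COL4A4-COL4A3 had a fold enrichment of 5.74 and 4.74 from 13 and 12 reads in the I-BET151 lists, and COL4A6-COL4A5 had 6.52 and 5.65 from 23 and 28 reads. Neither was called with DMSO. LMF1-SOX8, with a SOX family gene, was also gained, with 3.51 and 6.64, but its region covered the start of LMF1 and not that of SOX8. The pair SYMPK-FOXA3, with a FOXA family gene, had a region in all 4 lists (5.69, 5.19, 10.7 and 11.8) beside a gained one (3.70 and 4.24). That gained region covered neither start. The names LMF1-SOX8 and SYMPK-FOXA3 were chosen after their values were seen.

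The 705 regions called in all 4 lists were then compared by rank. Within each list all 25627 shared regions were ranked by fold enrichment, the ranks were turned into normal scores, and limma was fitted over all of them with Benjamini-Hochberg adjustment. In this comparison 19 bidirectional regions moved up with I-BET151 at an adjusted p under 0.05 (2.70%), where 3.41% of all shared regions did, and 9 moved down (1.28%), where 1.96% of all shared regions did. Of the one-direction regions, 2.87% moved up and 0.946% moved down. An unadjusted p under 0.05 was found for 171 of the 705 (24.3%) and for 6372 of all shared regions (24.9%). The order of the downward shares turned with the threshold. Counting only peaks with a −log10 p of 10 or more, 38 of 599 bidirectional regions moved down (6.34%) against 594 of all 13209, and with equal numbers of peaks 38 of 664 (5.72%) against 3.92%. The median difference in normal score (I-BET151 minus DMSO) was −0.17 for bidirectional, −0.04 for one-direction and −0.03 for all shared regions, and the difference was below 0 for 61.0%, 52.7% and 51.6% of them.

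The direction of that median depended on the scale. When regions were ranked by −log10 p the median difference was 0.02 for bidirectional and 0.07 for one-direction regions, with 0 bidirectional regions up and 0 down, and with the pileup centred on the median of each library it was 0.15 and 0.13 on the log2 scale, with 2 up and 2 down. Of all shared regions, 0.0312% moved up and 0.105% down by −log10 p, and 0.679% up and 4.65% down by the centred pileup. Among shared regions the median percentile of bidirectional promoters by fold enrichment was 75.5, 79.4, 76.2 and 67.7, so that I-BET151 replicate 2 stood apart, whereas by pileup it was 81.9, 82.6, 82.5 and 82.0. The calls also rested on single libraries. A fit without 1 library leaves a single library in a group, so only its median difference in normal score is given. Without DMSO replicate 1 or 2 it was −0.25 or −0.11 for bidirectional regions and −0.13 or 0.01 for one-direction regions. Without I-BET151 replicate 1 or 2 it was −0.29 or −0.07 for bidirectional regions and −0.13 or 0.08 for one-direction regions.

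**Figure D4:**
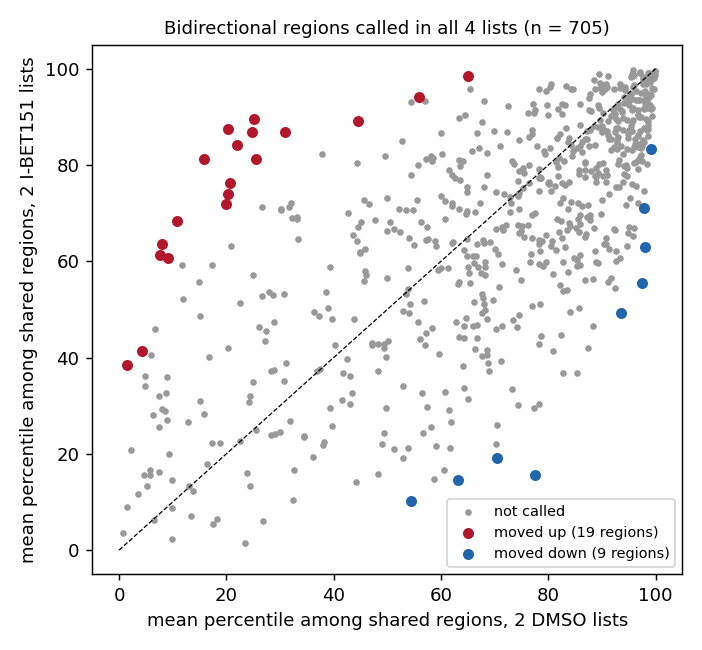
Mean percentile of the 705 bidirectional regions among all shared regions in the 2 DMSO lists (horizontal) and the 2 I-BET151 lists (vertical), each by fold enrichment. Red points mark the 19 regions that moved up and blue points the 9 that moved down (limma, adjusted p under 0.05), grey points did not pass, and the dashed line marks equal percentiles.

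Among the regions that moved up, the normal score rose by 1.40 to 2.02. The promoter of MRPL10-LRRC46, which starts a protein of the mitochondrial ribosome, had the smallest p. Its fold enrichment was 3.80 and 3.77 with DMSO and 13.2 and 13.7 with I-BET151, where the medians over bidirectional regions were 6.54, 6.25, 11 and 11.7. Its percentile among shared regions went from 16.1 and 24.7 to 90.6 and 84.3, a change in normal score of 2.0 (SE 0.383, limma adjusted p = 0.0132). Its pileup was 24, 24, 35 and 58 reads.

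AREL1-FCF1, a ubiquitin ligase gene next to a gene of rRNA processing, had a fold enrichment of 4.40 and 3.60 with DMSO and 14.6 and 13.7 with I-BET151 (adjusted p = 0.0149, limma). The DMSO peaks held 16 reads each and the I-BET151 peaks 32 and 46. KCTD19-LRRC36 had 3.79 and 3.47 with DMSO and 12.2 and 12.7 with I-BET151. INTS11-CPTP joins the catalytic subunit of the Integrator complex to a ceramide-1-phosphate transfer protein, and it had 2.96 and 2.63 with DMSO and 6.42 and 10.1 with I-BET151. EFCAB12-IFT122, where IFT122 is a subunit of intraflagellar transport, had 3.99, 3.72, 12 and 13.7, in a region that covered the start of EFCAB12 but not that of IFT122. At each of these 5 promoters, chosen by their p, both DMSO values lay below both I-BET151 values. The medians over bidirectional regions, 6.54 and 6.25 with DMSO and 11 and 11.7 with I-BET151, had the same order, so it does not set them apart.

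The other 14 regions that moved up included TPRA1-MCM2, with MCM2 of the replicative helicase, which had a fold enrichment of 4.93 and 5.35 with DMSO and 14.0 and 16.2 with I-BET151. ATP5F1A-HAUS1, with the alpha subunit of ATP synthase, had 5.43, 5.77, 16.5 and 18.0. HDAC3-RELL2, with a histone deacetylase, had 3.78, 3.74, 11.4 and 11.3, and NELFE-SKIC2, with a subunit of the factor that pauses RNA polymerase II, had 4.17, 3.75, 11.3 and 16.3. These 4 names were chosen after their values were seen. Over the 19 regions the median pileup was 26, 23, 35 and 62 reads, while the local background under them was 6.12, 6.20, 2.18 and 4.01 reads. Over all 705 regions this background was 5.68, 5.93, 3.42 and 7.27 reads, so that in the I-BET151 lists it was lower under the regions that moved up. Its part in the calls was not tested.

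Among the regions that moved down, the change in normal score was between −1.85 and −1.39. VPS35-ORC6, a retromer subunit next to a subunit of the origin recognition complex, had the smallest p. Its fold enrichment was 9.54 and 11.1 with DMSO and 8.67 and 10.7 with I-BET151, and its percentile among shared regions went from 96.2 and 98.6 to 53.9 and 57.2 (SE of the normal score 0.383, limma adjusted p = 0.0173). LPXN-ZFP91 had 6.62, 6.21, 6.15 and 5.88, and GLA-HNRNPH2, a lysosomal galactosidase gene next to a gene of an RNA-binding protein, had 11, 9.87, 10.0 and 10.8. DNAI4-MIER1 had 8.62, 8.66, 8.42 and 9.82, and PDCD10-SERPINI1 had 10.1, 10.6, 11.3 and 11.2. At VPS35-ORC6, GLA-HNRNPH2 and DNAI4-MIER1 the DMSO and I-BET151 values overlapped, at LPXN-ZFP91 both I-BET151 values were below both DMSO values, and at PDCD10-SERPINI1 they were above them. The median over bidirectional regions was 6.54 and 6.25 with DMSO and 11 and 11.7 with I-BET151, and these promoters fell in rank against that level. ZBTB4-POLR2A, with the largest subunit of RNA polymerase II, was also among the 9, with 5.47, 5.51, 5.92 and 5.94, a name chosen after its values were seen.

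Motifs were counted in the windows of these promoters as a description, with no test. Of the 21 pairs with a region that moved up, 10 had an ETS match (47.6%) and 1 an NFY match, whereas of the 10 pairs with a region that moved down 1 had an ETS match and 5 an NFY match (50.0%). These pairs held 19 and 9 regions, since some pairs share a region, such as LPXN-ZFP91 and LPXN-ZFP91-CNTF. At H2BC12-H2AC12 the region that moved down lay outside the searched window. Over all pairs the shares were 27.2% and 12.4%. The median GC content was 67.7% and 60.8%.

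**Figure D5:**
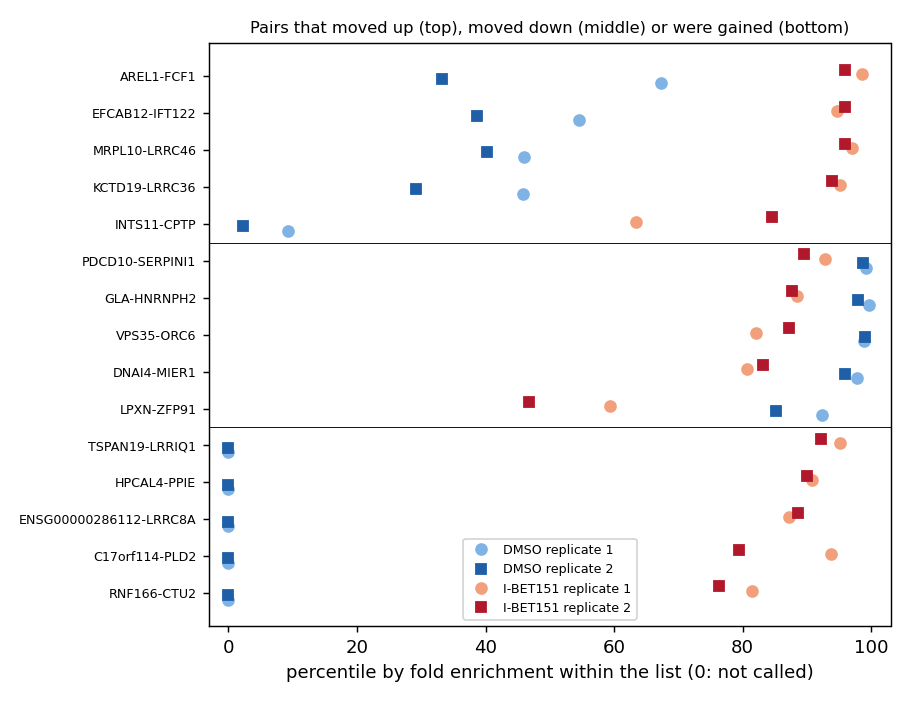
Percentile by fold enrichment among all peaks of each list (0 where the region was not called) for the regions of the 5 pairs with the smallest p that moved up (top), the 5 that moved down (middle) and the 5 strongest gained regions (bottom). Circles are replicate 1 and squares replicate 2, in blue for DMSO and in orange and red for I-BET151; all 5 gained regions are at 0 with DMSO.

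The pairs were grouped by the kind of gene they hold, and the counts of each list stand beside 84.4% of all pairs called in all 4 lists, and 2.70% up and 1.28% down of the shared and 5.12% gained of all bidirectional regions. For the mitochondrial ribosome there were 18 pairs, of which 16 were called in all 4 lists. Of their regions 2 moved up (MRPL10-LRRC46 and SLC7A7-MRPL52), 0 moved down and 1 was gained (MRPL21-IGHMBP2), and 8 of the 18 pairs had an ETS match and 6 an NRF1 match. For the respiratory chain there were 28 pairs, 25 of them called in all 4 lists, with 1 region up (ATP5F1A-HAUS1), 0 down and 1 gained (CCDC127-SDHA, with a subunit of succinate dehydrogenase). The cytosolic ribosomal list had 11 pairs, 10 called in all 4 lists, with 0 regions up, 0 down and 1 gained (MED22-RPL7A).

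DNA replication genes were in 15 pairs, of which 14 were called in all 4 lists, with 1 region up (TPRA1-MCM2) and 1 down (VPS35-ORC6). PRSS54-GINS3 was the pair of this list that was called in no list. DNA repair genes were in 16 pairs, 14 called in all 4 lists, with no region up, down or gained. Chaperone genes were in 15 pairs, all of which were called in all 4 lists, with 1 region up (DNAJC30-BUD23). Zinc finger genes were in 30 pairs, 28 called in all 4 lists, with 0 up and 0 down, and 14 of the 30 had an ETS match. Proteasome genes were in 6 pairs, 5 called in all 4 lists, with 1 gained (PSMA7-SS18L1). No pair held a gene of the pancreatic progenitor list.

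Histone pairs stood lower than the other lists, apart from collagen IV. The 15 pairs had 15 regions, and 11 of these were open in every list, 2 were gained (both at H3C7-H2BC9), 0 moved up and 1 moved down (at H2BC12-H2AC12). Their median percentile was 79.4 and 74.1 with DMSO and 69.8 and 59.9 with I-BET151, against 89.1, 80.9, 89.7 and 88.8 over all pairs. H2BC11-H2AC11 had a fold enrichment of 7.59, 6.74, 8.73 and 7.31, and its percentile among shared regions was 86.4 and 84.3 with DMSO and 54.5 and 19.0 with I-BET151 (limma adjusted p = 0.0544). H2AC7-H2BC7 had 6.25, 5.50, 6.65 and 6.85 (limma adjusted p = 0.057), and H2BC8-H2AC8 had 6.14, 5.20, 10.3 and 11.9 (limma adjusted p = 0.894). At H2BC12-H2AC12 the region that moved down lay outside the stretch between the starts, with 5.27, 4.82, 4.73 and 6.52 (limma adjusted p = 0.0443), whereas the region over the starts had 7.39, 5.21, 9.60 and 10.3 and did not pass (limma adjusted p = 0.484). H2AC1-H2BC1 and H2AC14-H2BC14 were called in no list. Histone genes are near-identical copies, so that reads may be shared among them.

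No region was found at 51 pairs. They included pairs of genes known from other tissues, such as OR11A1-OR2H1 (olfactory receptors), CSAG1-MAGEA12 (testis antigens), DUOX2-DUOXA2 (thyroid hydrogen peroxide synthesis) and TPRX1-CRX (a photoreceptor factor), named after the list was seen. Others held genes of the lists above, such as RAD51D-FNDC8 (DNA repair), PRSS54-GINS3 (DNA replication) and ATP5MJ-TDRD9 (respiratory chain), so these pairs were not of 1 kind. Their windows had a median GC content of 61.7% and a CpG ratio of 0.634, against 64.3% and 0.876 over all pairs, and an ETS match at 7 of the 51 pairs. Near the 1 kb limit of the definition, 17 pairs with starts 902 to 995 bp apart were called at 88.2%, 82.4%, 88.2% and 94.1%, and 9 pairs just outside it, 1008 to 1085 bp apart, at 77.8%, 66.7%, 88.9% and 88.9%. The mean percentile was lower inside the limit in each list (55.1, 47.7, 64.1 and 61.4) than just outside it (70.2, 56.5, 69.5 and 72.7).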

How the data were processed

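ATAC-seq reads were aligned by the authors to hg38 with Bowtie2 (v2.2.5) and peaks were called with MACS2 (v2.1.2) in each of the 4 libraries (submitters' processing notes). Each deposited list gives a score (a display value, not used here), the fold enrichment at the summit as a ratio, and the p-value and q-value as −log10. The methods state a p-value threshold of 1e-05, but the deposited lists reach a q-value of 0.05, and 7.54% to 10.9% of peaks lie above that p-value. Pileup and local background in reads were solved from the fold enrichment and p-value (100% of peaks within a relative tolerance of 0.01). The precision of a pileup is limited by counting error, which the SD of 2 libraries does not hold.

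Peaks of the autosomes and both sex chromosomes were merged at an overlap of 1 bp. The 509 head-to-head pairs whose gene records overlap were not members, 80 pairs include a readthrough gene, and 57 regions serve more than 1 pair. Ranks by fold enrichment were compared by limma's lmFit and eBayes on their normal scores (limma 3.58.1, R 4.3.3), and single values with two-sided exact permutation tests (Python 3.11.15, scipy 1.17.1). Pairing, overlap, pileup and limma steps were tested on simulated data. Named genes were the textbook and histone pairs, the 5 with the smallest p in each direction, the 5 strongest gained regions, and the 5 with the highest percentile. Gene lists were defined by symbol, leaving out symbols that only share a prefix (such as RPS6KB1 or MCM3AP). The members and lists were chosen with earlier results of these data known. CpG-rich windows, the crossed pairing and percentiles by pileup were added after seeing the data. Sequences are from hg38, and gene starts from GENCODE. Some named items are not reported here.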

Additional observations from a re-analysis of the deposited data

How the results depend on the processing

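The counts of bidirectional regions that moved in rank changed with the measure and the peaks used, and their median difference in normal score with the libraries. Against 19 up and 9 down, ranks by −log10 p gave 0 and 0 and the centred pileup 2 and 2, and the cause was not tested. Fewer regions are tested with −log10 p of at least 10 and with 38295 peaks from every list, and each gave 38 down. Leaving out each library in turn gave 1 to 41 up, 0 to 23 down and 0 to 15 lost. Gained regions were 86 instead of 41 at −log10 p of at least 10, and lost regions were 3 instead of 0 with equal numbers of peaks. The shares of all merged regions gained or lost under these settings are not given here.

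With the replicate number as a replicate block, 25 regions moved up (3.55%, against 3.84% of all shared regions) and 13 down (1.84%, against 2.54%). The replicate differences of both conditions did not go together over shared regions (correlation −0.14). Peak calling did go with the number. Summits lay 72 bp further right in replicate 2 in both conditions. The shortest peaks were 200 bp in both replicate 1 lists, against 233 and 256 bp. The correlation alone thus cannot decide whether libraries with the same number are paired. The fit that gave 19 up and 9 down had no block, so its spread holds any difference between the numbers. With the pairing crossed 35 moved up (4.96%, against 7.75% of all shared regions) and 40 down (5.67%, against 6.11%). The block left the difference in called share at 5.81 and in pairs with 1 peak over both starts at 11.3 percentage points.

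The difference in called share between bidirectional and one-direction promoters stayed between 36.5 and 44.2 percentage points under the settings other than CpG-rich starts, where it was 16.2, and that in mean percentile between 33.0 and 40.7, with 20.4 at CpG-rich starts. The deposited lists state no read totals, and pileups as low as 8 reads at gained regions carry a large counting error.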
